A study of Mus musculus with 6 samples.

Results

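NF-kB transcription factors were examined here through the genes of their subunits and inhibitors in Foxp3-positive CD4 T cells of mouse mesenteric lymph nodes. The members are Nfkb1, Nfkb2, Rel, Rela and Relb, which encode the subunits, Nfkbia, Nfkbib, Nfkbid and Nfkbie, which encode inhibitors of the IkB family, and Tnfaip3, which encodes the ubiquitin-editing enzyme A20. They were chosen by symbol alone, and every probe set with such a symbol was kept apart: 17 probe sets of 9 genes, out of 34945 probe sets and 18193 genes with 1 symbol on the array. Nfkb1 was not analysed here.

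The iTreg group holds 3 arrays of CD4+ Foxp3+ Nrp- cells, induced Treg from Balb/c TBmc Foxp3 GFP mice after 1 week of 1% ovalbumin by mouth. TBmc mice lack the recombinase that builds receptors and instead carry 1 T cell receptor, which sees ovalbumin, and 1 B cell receptor; they are known to hold hardly any thymic Treg. The WT Treg group holds 3 arrays of total CD4+ Foxp3+ cells from untreated Balb/c Wild Type Foxp3 GFP mice. All mice were 4 to 6 weeks old. The genotype, the receptor, the feeding and the Nrp gate all differ between the groups and cannot be told apart, and the labels do not say whether arrays came from separate mice or pools, so p-values measure only the spread between these arrays. The labels of 2 arrays go against their group: iTreg replicate 1 has a strain label without TBmc, and WT replicate 1 has the Nrp- cell type.

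NF-kB dimers are held in the cytoplasm by IkB proteins until a receptor signal, such as that of the T cell receptor with CD28 or of a TNF family receptor, leads the IKK kinase to mark IkB for destruction. The freed dimers enter the nucleus and switch on, among many others, the genes of their own inhibitors, so that Nfkbia and Tnfaip3 act as negative feedback. In regulatory T cells c-Rel, the product of Rel, is needed for the development of thymic Treg and binds the Foxp3 locus, and IkBNS, the product of Nfkbid, is known to support Foxp3 induction.

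Signals are MAS5 intensities on a linear scale, each array scaled before deposit to a trimmed mean of 150.0. Background was read from 27 bacterial control probe sets that had no spiked target here, which gave at most 28.5. This limit came from WT replicate 2, and the highest such value on the other arrays was 10.8 to 17.7. Median signals were 24.3 to 27.5 in iTreg against 21.1 to 32.3 in WT Treg. All 7 measured T cell markers lay above that background, with a summed signal of 16868.1 to 19532.3 in iTreg against 16183.4 to 23382.8 in WT Treg. Cd5 was lower on every iTreg array (519.6 to 823.5 against 1323.2 to 1445.0). Cd28 was higher on every iTreg array (1818.0 to 2345.4 against 1458.6 to 1541.6), while the other T cell markers overlapped. Of the 5 Treg markers, Il2ra, Ctla4, Ikzf2 and Tnfrsf18 were bright, while the Foxp3 probe set itself gave only 15.6 to 54.6 in iTreg against 9.16 to 45.7 in WT Treg, around background. Markers of B cells (1 of 5 above background), plasma cells (1 of 4), myeloid cells (1 of 6), dendritic cells (2 of 6), NK or CD8 cells (3 of 4) and stroma or red cells (2 of 6) were mostly dim, Xbp1 and Pecam1 apart. Pax5, Ms4a1, Cd14, Flt3 and Ncr1 had median signals of 2.48 to 6.25, while Cd8a, Cd8b1, Nkg7, Cd79b, Zbtb46 and H2-Ab1 lay above background on average. The sum of the NK or CD8 markers was higher on every iTreg array (159.5 to 239.2) than on every WT array (148.3 to 157.2). Of its genes only Cd8b1 was itself higher on every iTreg array, at 69.6 to 132.2 against 33.7 to 63.3. Cd8a, Nkg7 and Ncr1 overlapped between the groups. The part of this sum in the results was not tested.

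The start regions of the genes are shown because feedback through NF-kB is what several of them are known for. In the RefSeq promoter table for GRCm38.p6, which is the C57BL/6J genome and not Balb/c, 8 members had an entry: Nfkb2, Rel, Rela, Nfkbia, Nfkbib, Nfkbid, Nfkbie and Tnfaip3. The 250 bases before each listed start were searched on both strands for the kB consensus, the 10-base motif bound by NF-kB. At least 1 match lay in 6 of these 8 genes, and in 8 of their 13 windows, against 8.24% of 27018 genes and 7.25% of 32841 windows in the table. The windows shown are those of Nfkbia and Tnfaip3, whose signals were highest on replicate 1 of both groups, of Rel, the member whose groups did not overlap, and of Nfkbid, the member with the largest difference. Capitals mark the matches, overlapping ones joined, and each window ends at the base before the start; Nfkbia is chr12:55492648-55492897 on the minus strand, Tnfaip3 chr10:19015411-19015660 on the minus strand, Rel chr11:23770970-23771219 on the minus strand and Nfkbid chr7:30422156-30422405 on the plus strand.
Nfkbia: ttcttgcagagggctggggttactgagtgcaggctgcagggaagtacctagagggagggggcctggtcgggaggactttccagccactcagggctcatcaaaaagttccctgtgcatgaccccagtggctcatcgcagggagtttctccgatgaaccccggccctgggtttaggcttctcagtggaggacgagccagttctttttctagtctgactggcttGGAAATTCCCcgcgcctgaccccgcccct
Tnfaip3: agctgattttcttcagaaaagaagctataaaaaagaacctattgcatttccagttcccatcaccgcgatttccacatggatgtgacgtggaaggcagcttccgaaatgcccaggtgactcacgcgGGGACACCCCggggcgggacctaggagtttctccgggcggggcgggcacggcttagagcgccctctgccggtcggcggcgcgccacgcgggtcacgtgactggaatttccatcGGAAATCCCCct
Rel: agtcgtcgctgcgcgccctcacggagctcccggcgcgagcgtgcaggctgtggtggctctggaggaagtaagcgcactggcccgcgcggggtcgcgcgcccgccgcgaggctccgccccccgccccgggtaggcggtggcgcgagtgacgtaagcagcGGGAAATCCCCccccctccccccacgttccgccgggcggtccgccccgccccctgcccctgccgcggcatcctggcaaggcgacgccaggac
Nfkbid: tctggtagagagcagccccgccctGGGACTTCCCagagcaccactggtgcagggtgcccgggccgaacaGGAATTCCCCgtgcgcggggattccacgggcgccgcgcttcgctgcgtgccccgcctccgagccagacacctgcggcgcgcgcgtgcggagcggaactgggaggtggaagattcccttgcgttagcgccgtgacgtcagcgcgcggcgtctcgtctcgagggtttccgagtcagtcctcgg

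The match of Nfkbia, GGGAATTTCC on the strand opposite to the gene, lay 29 to 20 bases before the start. Tnfaip3 had GGGGATTTCC on the opposite strand 12 to 3 bases before its start and GGGACACCCC further up, at 125 to 116 bases. Its other listed start had no match. The Rel window held GGGAAATCCC, which reads as a match on either strand, overlapped by 1 shifted by a base. Nfkbid had GGGACTTCCC and, on the opposite strand, GGGGAATTCC at the start shown, and none at its other 2 listed starts. Nfkb2 had matches at all 3 listed starts, among them GGGACTTTCC and GGGAATTCCC, and Nfkbie had GGGGGATTCC. No match was found for Rela or Nfkbib. A match is a run of letters in the reference, not a measured site of binding, and the start used in these cells was not measured.

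No member passed the test between iTreg and WT Treg. Of the 16 member probe sets that passed the filter on mean level, limma called 0 higher and 0 lower at an adjusted p of 0.05. Of all 20967 probe sets tested, 0.0191% were called. An unadjusted p under 0.05 was reached by 0 of the 16, where 6.77% of all reached it. Adjusted p-values ran from 0.826 to 0.996. Differences are given as iTreg minus WT Treg on the log2(signal + 16) scale, which understates the change of dim genes. In such bulk samples, fewer cells of a type and less RNA per cell cannot be told apart. The differences ran from -0.50 to 0.64, with 6 positive, 10 negative and a median of -0.08, beside a median of -0.04 over all probe sets tested. The intervals were wide: for 11 of the 16 the 95% interval reached past 1 log2 unit, a 2-fold change, in some direction, and for 5 it did not (Relb, 3 probe sets of Nfkbia and 1 of Nfkbie). The groups did not overlap on 1 of the 16 member probe sets (6.25%), against 12.0% of all probe sets.

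**Figure D1:**
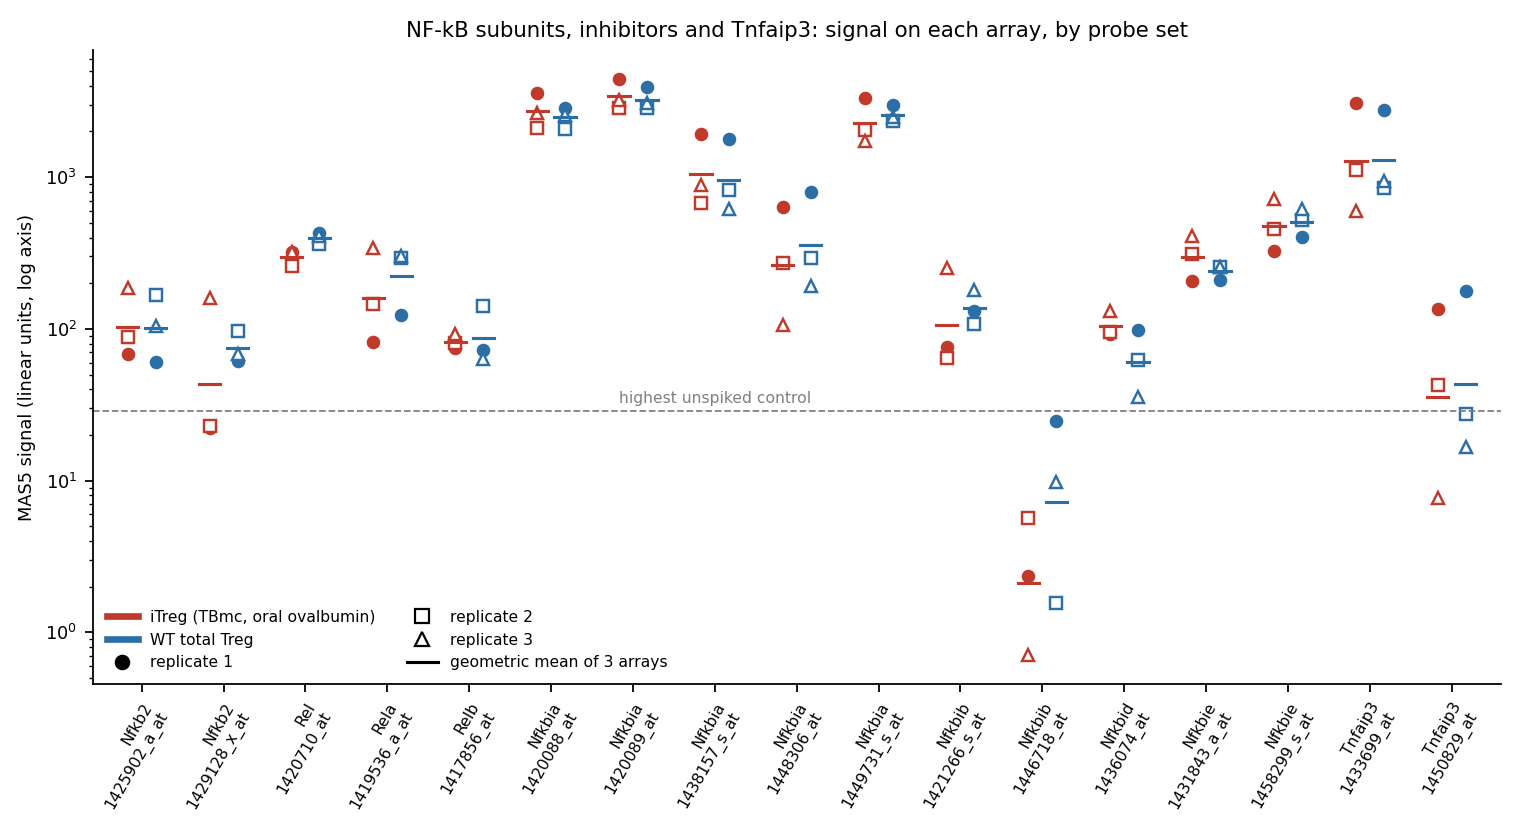
MAS5 signal (log axis) of each of the 17 member probe sets on every array, iTreg in red and WT Treg in blue, with a bar at the geometric mean of 3 arrays and a dashed line at 28.5, the highest unspiked control. Filled circles are the replicate 1 arrays, which are the highest of their group on all 5 Nfkbia and both Tnfaip3 probe sets.

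Among the subunits, Rel had the clearest separation. Values follow replicates 1, 2 and 3: its signal was 320.0, 258 and 321 in iTreg against 427, 362 and 410.4 in WT Treg. Every iTreg array thus lay below every WT array, a separation that 7.52% of all probe sets showed in the same direction. The difference was -0.40 with a standard error of 0.30 and a 95% interval of -1.05 to 0.25 (limma adjusted p = 0.854). It stayed between -0.47 and -0.30 without single arrays and was -0.40 without both arrays with label doubts.

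Rela encodes p65, the subunit with the main activating domain in the classical pathway. Its signal was 81.8, 146 and 340.3 in iTreg against 124, 295 and 304 in WT Treg, so that the arrays of a group differed more than the groups did. The difference was -0.43 (95% interval -1.52 to 0.65, limma adjusted p = 0.9002), and it ranged from -0.94 to -0.00 without single arrays.

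Nfkb2 and Relb belong to the alternative pathway, in which the p100 product of Nfkb2 is cut to p52 and pairs with RelB. On its first probe set, 1425902_a_at, Nfkb2 gave 68.6, 87.9 and 185 in iTreg against 60.7, 167 and 104 in WT Treg, a difference of 0.02 (95% interval -0.99 to 1.03). On the other, 1429128_x_at, it gave 22.4, 23.0 and 160.5 in iTreg against 61.6, 97.3 and 68.6 in WT Treg. The first 2 iTreg arrays lay below the background limit there, though above the highest unspiked control on their own arrays, at 17.6 and 10.8. The third lay above every WT array. The difference of -0.50 became -1.23 without iTreg replicate 3 (limma adjusted p = 0.684), so its size rests on this array. Relb gave 75.2, 80.8 and 92.5 in iTreg against 72.3, 142 and 62.9 in WT Treg, a difference of -0.07 (95% interval -0.96 to 0.82). The iTreg values of Relb lay within the range of the WT values.

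Of the inhibitors, Nfkbid had the largest difference of any member. It encodes IkBNS, a nuclear IkB protein that modulates NF-kB dimers on DNA. Its signal was 91.9, 94.7 and 131 in iTreg against 97.9, 62.5 and 35.4 in WT Treg. The iTreg arrays were higher on average, but WT replicate 1 lay above 2 of them. The difference was 0.64 with a standard error of 0.42 and a 95% interval of -0.27 to 1.56 (limma adjusted p = 0.826). Without both arrays with label doubts, WT replicate 1 among them, it was 1.00 (adjusted p = 0.975), and without both replicate 3 arrays it was 0.21.

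Nfkbie encodes IkB-epsilon, which holds mainly c-Rel and RelA dimers. Its probe set 1431843_a_at gave 208, 310.3 and 411 in iTreg against 209, 257 and 254 in WT Treg. Its probe set 1458299_s_at gave 328, 456 and 718 in iTreg against 402, 518 and 621 in WT Treg. On the first, iTreg replicate 1 lay just below the WT values and the other iTreg arrays lay above them. On the second, the iTreg values spread around the WT values. The differences were 0.30 and -0.08, of opposite sign (limma adjusted p = 0.9002 and 0.977).

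Nfkbib encodes IkB-beta, which is rebuilt more slowly than IkB-alpha after a signal. Its probe set 1421266_s_at gave 75.5, 63.8 and 251 in iTreg against 131, 108 and 179 in WT Treg. The lowest and the highest of the 6 arrays were both iTreg, and the difference was -0.29 (95% interval -1.34 to 0.76). It was -0.84 without iTreg replicate 3 and 0.03 without iTreg replicate 2. The other probe set, 1446718_at, gave 0.704 to 5.66 in iTreg against 1.57 to 24.7 in WT Treg, all below the background limit, and was not tested.

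**Figure D2:**
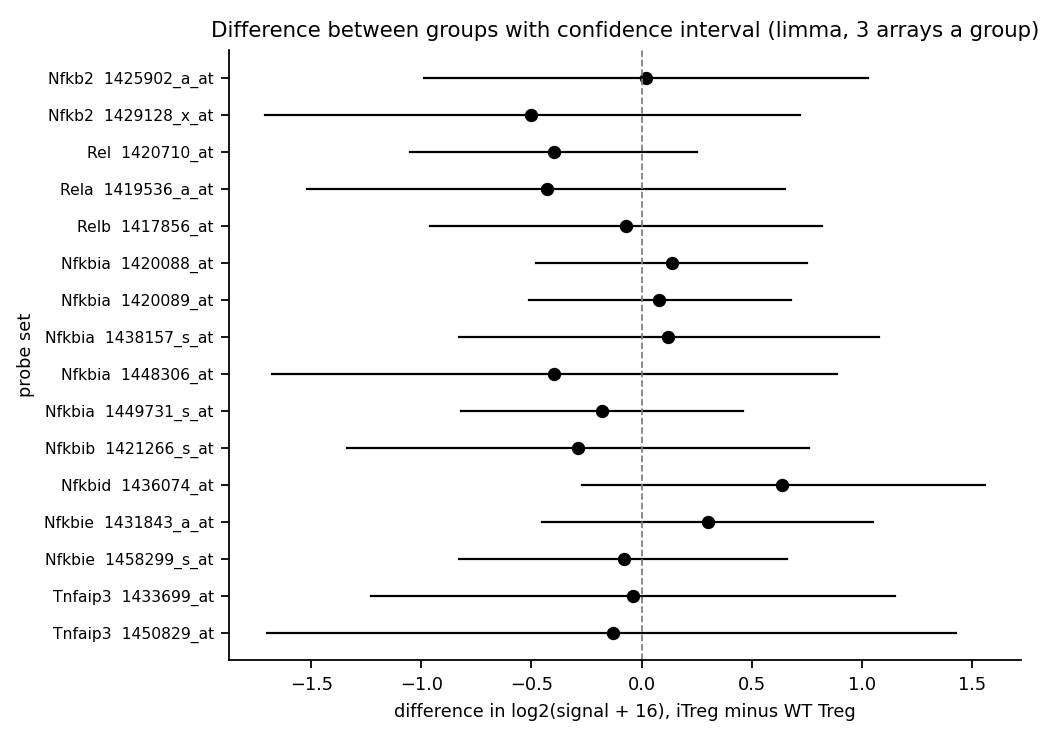
Difference between the groups for each of the 16 tested member probe sets, as iTreg minus WT Treg in log2(signal + 16), with lines for the 95% interval from limma over 3 arrays a group. Every interval crosses 0; the lowest difference is -0.50 (Nfkb2) and the highest 0.64 (Nfkbid).

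For Nfkbia and Tnfaip3, the feedback inhibitors, arrays of 1 group differed more than the group means did. All probe sets were bright except Tnfaip3 on 1450829_at. Nfkbia encodes IkB-alpha, the main cytoplasmic inhibitor, and had 5 probe sets, with differences from -0.40 to 0.14 and adjusted p-values from 0.923 to 0.973. On probe set 1420089_at its signal was 4434.9, 2845.8 and 3224.9 in iTreg against 3899.0, 2846.1 and 3080.8 in WT Treg, a difference of 0.08 with a 95% interval of -0.51 to 0.68. This interval excludes a change of 1 log2 unit in either direction. Probe set 1420088_at, at 0.14 with a 95% interval of -0.48 to 0.75, and 1449731_s_at, at -0.18 with one of -0.82 to 0.46, excluded it too. The intervals of the other probe sets, 1438157_s_at and 1448306_at, did not.

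On those other Nfkbia probe sets replicate 1 of each group stood apart from the remaining arrays. On 1448306_at the signal was 637, 272 and 106 in iTreg against 796, 294 and 193 in WT Treg. On 1438157_s_at it was 1938.1, 676 and 884 in iTreg against 1777.7, 818 and 616 in WT Treg. The replicate 1 array of each group was thus the highest on both. On the log2 scale it stood above the mean of the group's other 2 arrays by 1.80 in iTreg and 1.67 in WT Treg on the first and by 1.31 and 1.30 on the second. On the other 3 probe sets of Nfkbia the same step was 0.30 to 0.81.

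Tnfaip3 was likewise highest on the replicate 1 arrays. A20, its product, removes activating ubiquitin chains upstream of IKK. Probe set 1433699_at gave 3072.5, 1117.0 and 599 in iTreg against 2773.0, 849 and 945 in WT Treg, and 1450829_at gave 135, 42.6 and 7.71 against 178, 27.7 and 16.6. Replicate 1 led each group on both, by 1.89 and 1.61 log2 units on the first and 2.02 and 2.36 on the second. On the second all but 1 of the other arrays lay below the background limit of 28.5, so the size of those steps depends on the pseudocount. The differences between the groups were -0.04 (95% interval -1.23 to 1.15) and -0.13 (95% interval -1.70 to 1.43). Without both replicate 1 arrays they were -0.13 and -0.02.

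Replicate 1 was the highest array of both groups on 7 of the 16 member probe sets, those of Nfkbia and Tnfaip3, beside 12.1% of all probe sets tested, and the lowest of both on 5, beside 10.5%. By size, 4 of the 16 member probe sets, 2 of Nfkbia and 2 of Tnfaip3, stood at least 1 log2 unit higher in replicate 1 than in the group's other arrays in both groups, as did 0.897% of all probe sets tested. This step size was chosen after the values were seen, and probe sets of 1 gene are not independent, so no test was made. By the smaller of the steps in the 2 groups, they ranked 5, 16, 19 and 64 among 20967 probe sets. Rank 5 is that of Tnfaip3 on 1450829_at, set largely against background; the signals behind the other ranks all lay above it. Rela stood in the opposite corner, with replicate 1 at -1.30 in iTreg and -1.17 in WT Treg; it was the 1 member probe set at least 1 log2 unit lower in both groups, beside 0.234% of all. The other probe sets on which replicate 1 was lowest in both groups were those of Nfkb2, where iTreg gave -0.77 and -1.11 and WT Treg -0.95 and -0.34, and of Nfkbie, where iTreg gave -0.74 and -0.77 and WT Treg -0.27 and -0.48. The replicate 1 arrays are also those with label doubts, and they had the lowest spike-in signals of their groups, a mean log2 of 12.26 against 12.40 and 12.71 in iTreg, and of 11.98 against 12.21 and 12.70 in WT Treg. A measure of RNA quality, the 3′ over 5′ signal of Gapdh on the log2 scale, was 3.06 on replicate 1 against 2.48 and 3.38 in iTreg, and 2.28 against 2.53 and 2.34 in WT Treg. By this ratio iTreg replicates 1 and 3 lay above every WT array. The same ratio of actin was 0.38 on replicate 1 against 0.25 and -0.00 in iTreg, and 0.14 against 0.27 and 0.32 in WT Treg. The part of these in the result was not tested.

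**Figure D3:**
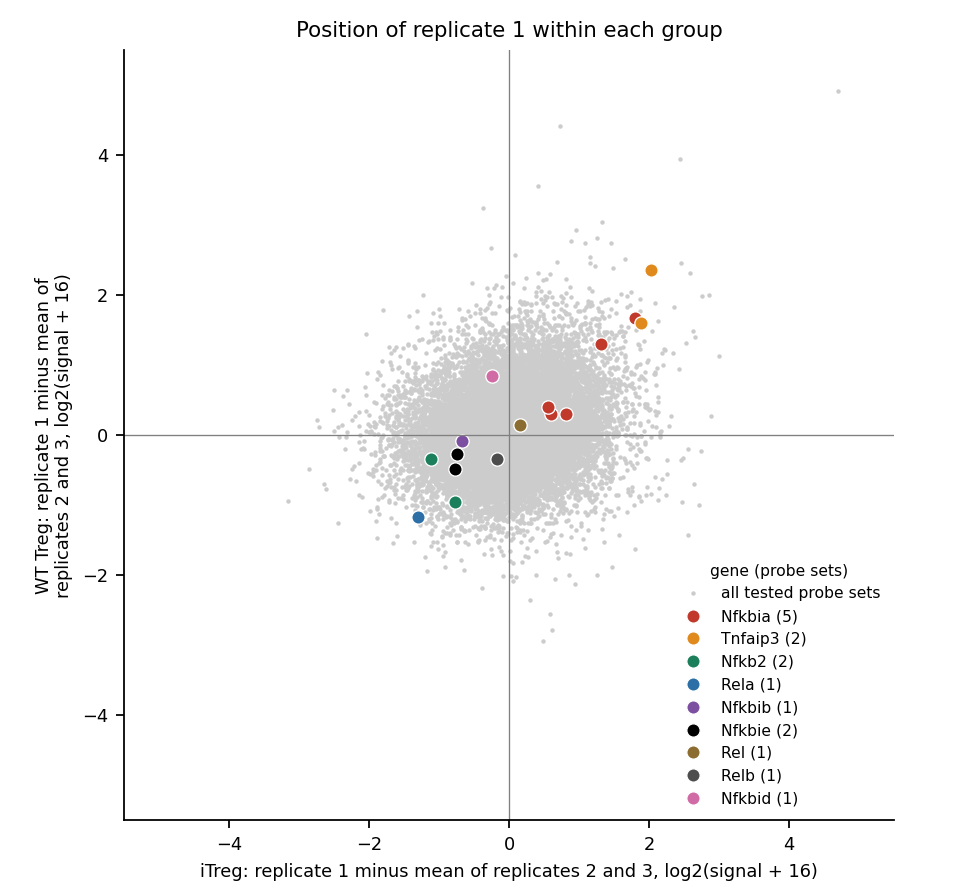
Each point is a probe set, with replicate 1 minus the mean of replicates 2 and 3 in log2(signal + 16) for iTreg (x axis) and WT Treg (y axis); grey points are all 20967 tested probe sets and coloured points the 16 of the members. Both Tnfaip3 and 2 of the 5 Nfkbia probe sets lie at the upper right, and Rela at the lower left.

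The other genes of the pathway were taken from lists, with 1 probe set per gene. Of 23 tested genes of the IKK complex and the steps above it, 0 were called, where 0.0278% of 10783 genes were, and 0 had an unadjusted p under 0.05; their median difference was -0.03, as it was over all genes. The smallest p-values were those of Btrc at -0.97, which encodes the ubiquitin ligase subunit that recognises marked IkB, Tab2 at 0.47, an adaptor of the TAK1 kinase, and Malt1 at -0.73, a paracaspase of T cell receptor signalling (limma adjusted p = 0.755, 0.8095 and 0.847). Btrc had signals of 87.6, 95.0 and 24.1 in iTreg against 119, 109.9 and 189 in WT Treg, without overlap. It was the 1 gene of the 23 without overlap (4.35%), beside 12.9% of all genes. Its other tested probe sets differed by -0.10, 0.17 and 0.35, and its difference was -0.28 without both replicate 3 arrays. Tab2 differed by 0.66 on its other probe set, 1451003_at, with an unadjusted limma p of 0.0418 (adjusted p = 0.724). The groups did not overlap there, with iTreg higher, so the counts above hold for the chosen probe sets only. The other probe sets of Malt1 differed by -0.46 and 0.30, and the difference of Malt1 on its chosen probe set was -0.07 without iTreg replicate 3.

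Among 18 tested genes of other IkB-like proteins and brakes, 0 were called and 0 had an unadjusted p under 0.05, with a median difference of 0.08. Bcl3, a nuclear IkB protein that works with p50 and p52, led at 0.81 (95% interval -0.15 to 1.76, limma adjusted p = 0.793). Its signals were 177, 307 and 644 in iTreg against 133, 212 and 209 in WT Treg, so that iTreg replicate 3 stood out and replicate 1 lay within the WT values; without iTreg replicate 3 the difference was 0.34. Nfkbil1 followed at -0.78 and Otulin, which cuts linear ubiquitin chains, at -0.48. The groups did not overlap for these, both lower, and for Tnip1, an A20-binding protein named after its values were seen, higher at 0.39. That is 16.7% of the list, beside 12.9% of all genes, and none of the 3 passed. Nfkbiz, an inducible nuclear IkB protein named here after its values were seen, differed by 0.14. Its signals were 1991.7, 1140.1 and 1007.9 in iTreg against 2082.2, 1857.7 and 434.4 in WT Treg. Replicate 1 stood above the mean of the group's other arrays by 0.88 in iTreg and 1.19 in WT Treg. The WT step rests largely on the low replicate 3, since WT replicates 1 and 2 were close.

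Among known target genes of NF-kB in lymphocytes, more were lower than higher in iTreg at an unadjusted p, and none passed the adjusted test. Of 29 tested, 0 were called at an adjusted p of 0.05. At an unadjusted p under 0.05, 8 were lower (27.6%) and 1 was higher, beside 4.52% lower and 3.02% higher of all genes. The groups did not overlap for 8 lower genes and 0 higher ones, beside 7.80% and 5.12% of all genes. Il10 is in both counts of 8 and passed the filter on low values through the WT arrays alone; without it both counts are 7. The median difference was -0.18, against -0.03 over all genes. The list was drawn up with earlier results of these arrays known, and several of its genes were already seen to be lower, so these shares are no independent evidence. Il2ra and Tnfrsf18 are also among the Treg markers, and the targets named here answer to other signals as well. The summed signal of the 5 Treg markers was 6417.9 to 7826.3 in iTreg against 10989.2 to 12703.7 in WT Treg. This sum counts Il2ra and Tnfrsf18 again, so it is not separate from the target list. Of its other genes, Ikzf2 was lower on every iTreg array (1215.1 to 1640.9 against 2020.7 to 2274.7), while Ctla4 and Foxp3 overlapped. The part of the Treg markers in the result was not tested.

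Cd83, a surface protein of activated lymphocytes, had signals of 99.6, 33.8 and 44.3 in iTreg against 302, 548 and 516 in WT Treg. Every iTreg array lay below every WT array, by a difference of -2.70 with a standard error of 0.42 (95% interval -3.62 to -1.78, limma adjusted p = 0.0727). It passed with array weights (-2.49, adjusted p = 0.0429) and among probe sets specific by name (adjusted p = 0.0486), but not in the other 18 alternatives, where the adjusted p reached 0.419 without WT replicate 2. The size of the difference depends on the pseudocount, at -3.03 with 1 and -2.08 with 64. Il10, a suppressive cytokine, gave 0.411 to 6.03 in iTreg, all at background, and 83.7, 36.3 and 36.01 in WT Treg. Tnfrsf4, the costimulatory receptor OX40, gave 321, 326 and 394 in iTreg against 722, 762 and 1202.3 in WT Treg. Their differences were -1.75 and -1.30 (limma adjusted p = 0.244 and 0.292). Since Il10 was tested only through its WT level, a difference was built into its selection, and its size depends on the pseudocount.

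Named after their values were seen, Irf4 (-1.51), Il2ra (-1.35), Myc (-1.08), Tnfrsf18 (-0.99) and Traf1 (-0.18) were also without overlap, and none passed. The groups overlapped for the other 21 targets, from Tnf at -1.07 to Ccr7 at 0.70, which was the 1 higher gene at an unadjusted p under 0.05. Examples between them are Ltb at -0.58, Tnfrsf9 at -0.54, Icam1 at 0.02, Birc3 at 0.24 and Bcl2l1 at 0.45. Tnf, Ccr7 and these examples were likewise named after their values were seen. With 1 probe set per gene, the 9 subunit and inhibitor genes lay between -0.43 and 0.64.

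**Figure D4:**
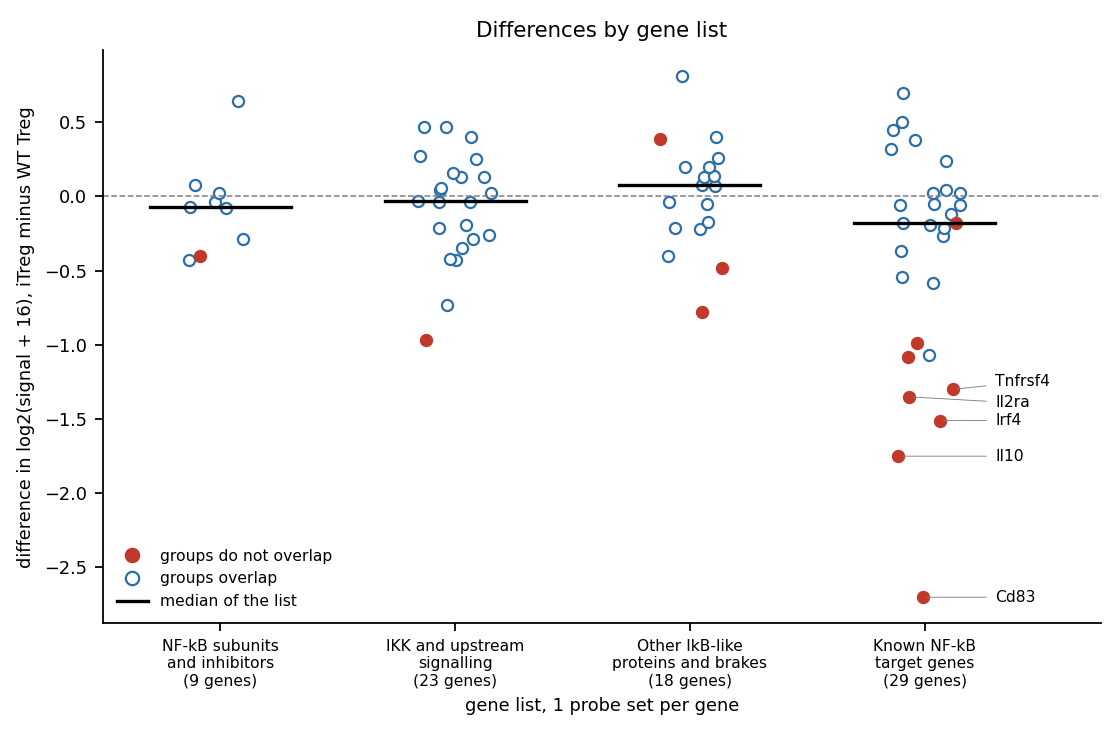
Difference of each tested gene, 1 probe set per gene, as iTreg minus WT Treg in log2(signal + 16), by list; filled red points are genes whose groups do not overlap and black lines are list medians. The 9 subunit and inhibitor genes lie between -0.43 and 0.64, while the target list reaches down to -2.70 at Cd83.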

How the data were processed

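Foxp3-positive CD4 T cells were profiled on 6 Affymetrix mouse arrays of 1 colour; groups and replicate numbers come from the sample titles. The deposited values are MAS5 intensity signals, linear, 1 for each probe set, as named in the submitters' processing notes; the MAS5 version and detection calls are not given in the sources used here. Of 45101 probe sets, 64 are controls, 34945 have 1 gene symbol in the platform annotation, and 932 with several and 9160 with none were not used.

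Signals were transformed as log2(signal + 16). Probe sets at or above the 40th percentile of mean level, 5.03 on the log2 scale, were tested: 20967. The test was limma 3.58.1 (lmFit, then eBayes with an intensity trend) under R 4.3.3, two-sided, adjusted by Benjamini-Hochberg over all of them. In simulated data the fit recovered 0.6% of changes of 1 log2 unit, 41.5% of 2 and 88.0% of 3. Changes of 1 log2 unit were thus almost never called there, so the absence of a call does not exclude them. For lists, the probe set with the highest mean over all arrays stood for its gene. Member and list genes were named as follows: every probe set of the members, and the 3 genes of smallest p in each list; others are marked. The members and lists were chosen with earlier results of these data known. Alternatives were pseudocounts of 1 and 64, quantile and median scaling, no filter or a 60th percentile filter, no trend, robust variances, array weights, 1 probe set per gene, probe sets specific by name (no _a_at, _s_at or _x_at ending), the replicate number as a block, and leaving arrays out. The number of arrays limits the precision.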

Additional observations from a re-analysis of the deposited data

How the results depend on the processing

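Over 20 alternatives no member probe set was called, and the smallest adjusted p of a member was 0.682. At an unadjusted p under 0.05, Nfkb2 on 1429128_x_at passed without iTreg replicate 3 (-1.23) and without both replicate 3 arrays (-1.28). Of the 16 member probe sets, 5 kept the sign of their difference in every alternative that tested them (Rel and Nfkbid in 20, Rela in 19, Nfkbie on 1431843_a_at in 18 and Nfkb2 on 1429128_x_at in 17) and 11 did not; none of these signs rests on a call. The sign changed with median scaling for Relb (0.04), Tnfaip3 on 1433699_at (0.09) and Nfkbie on 1458299_s_at (0.04); with array weights for Nfkb2 on 1425902_a_at (-0.15) and Tnfaip3 on 1433699_at (0.17); without both arrays with label doubts for Nfkb2 on 1425902_a_at (-0.04) and Nfkbie on 1458299_s_at (0.01); and without both replicate 3 arrays for Nfkb2 on 1425902_a_at (-0.34), Tnfaip3 on 1433699_at (0.27) and 1450829_at (0.03) and Nfkbia on 1438157_s_at (-0.07). Without single arrays the differences ran from -0.26 to 0.24 for Relb, -0.84 to 0.03 for Nfkbib and -0.34 to 0.33 for Nfkb2 on 1425902_a_at. They ran for Nfkbia from -0.07 to 0.32 on 1420088_at, -0.10 to 0.22 on 1420089_at, -0.32 to 0.56 on 1438157_s_at, -1.00 to 0.21 on 1448306_at and -0.45 to 0.01 on 1449731_s_at. They ran from -0.67 to 0.50 and -0.80 to 0.66 for the Tnfaip3 probe sets and from -0.37 to 0.17 for Nfkbie on 1458299_s_at. The cause of these changes was not tested. Median scaling moved the median of all probe sets from -0.04 to 0.07. The count of calls over all probe sets, 4 in all, was 14 with array weights, 8 among probe sets specific by name, 1 with a pseudocount of 1, 1 without the filter, 0 to 2 without single arrays, 0 without both arrays with label doubts and 1 without both replicate 3 arrays. The count over the pathway lists, 0, was 1 with array weights and 1 among probe sets specific by name, Cd83 each time. The replicate numbers do not pair the arrays by the labels. The deviations of same-numbered arrays correlated at 0.18, 0.04 and 0.13, and those of differently numbered arrays at -0.17 to 0.04. With the replicate block 1 probe set was called over all and 0 of the members.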

Other observations

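Other genes stood high in replicate 1 of both groups, as Tnfaip3 and Nfkbia did. They were named after their values were seen, and no test was made of them. By the smaller of the steps in the 2 groups, the AP-1 gene Fos ranked first among all probe sets tested, with signals of 2356.7, 421 and 3.18 in iTreg, in the order of replicates 1, 2 and 3, against 1111.9, 22.2 and 20.5 in WT Treg. The antiproliferative gene Btg1 gave 1950.9, 773 and 149.5 in iTreg against 1824.1, 156 and 68.3 in WT Treg, on probe set 1442018_at. Rgs2, a regulator of G protein signalling, gave 963, 387 and 29.4 in iTreg against 1184.8, 183 and 437 in WT Treg. Fosb, another AP-1 gene, gave 204, 23.6 and 11.1 in iTreg against 98.7, 18.4 and 8.40 in WT Treg. Sod1 on 1440222_at, Plk2, Abra, Pde12, Slc10a1 and Fmnl2 also ranked among the highest 11. For Fos, Fosb, Plk2, Abra and Pde12 most or all of the arrays of replicates 2 and 3 lay below the background limit of 28.5. For Sod1, Slc10a1 and Fmnl2 some of these arrays did. For the genes with arrays below that limit, the steps and ranks thus depend on the pseudocount. Btg1 and Rgs2 lay above the limit on every array.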
